A study of Mus musculus with 4 samples.

Results

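Socs1, Socs2, Socs3, Cish and Pim1 are genes that cytokine receptors switch on through STAT transcription factors. They were taken by gene symbol from a table of 15607 genes, and all 5 were present in it with 121 counts or more in every library, so none was lost to the table's filter on low counts. The table came from RNA-seq of bone marrow cells sorted as Lin-, that is, without the surface markers of mature blood lineages, which leaves mostly progenitors. That sort is given in the study's design text, whereas the sample titles call the cells HSCs, a much narrower population, and the cell type label covers both stem and progenitor cells. Mice 5 and 6 were labelled as knockouts (KO) of Mel18, a Polycomb protein encoded by Pcgf2, made conditionally in the blood system, and mice 1 and 3 were labelled wild type (WT). There were 4 libraries, 1 per mouse. Of the model's limits, the sources used here name neither the Cre driver nor the exons removed, and they give no age, sex or strain for either group.

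When a cytokine binds its receptor, Janus kinases (JAKs) attached to the receptor phosphorylate it and the STAT proteins that dock there, and the STATs then enter the nucleus and activate genes. The SOCS family and its founding member CIS (gene Cish) are among the genes activated, and their proteins switch the same receptors off. SOCS1 and SOCS3 carry a short region that blocks the JAK catalytic site, CIS and SOCS2 bind phosphorylated receptor tails, and all of them have a SOCS box that recruits a ubiquitin ligase. PIM1, a serine/threonine kinase that needs no activation step, is made from another STAT-induced gene and favours survival and growth of blood cells.

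Total counts were 46240864 and 44642002 in KO mice 5 and 6, and 35599564 and 37197363 in WT mice 1 and 3. Pcgf2 was not lower in the libraries labelled KO. It had 6.56 and 7.19 counts scaled to library size (CPM) in KO mice 5 and 6, against 5.74 and 4.36 CPM in WT mice 1 and 3, and the log2 fold change was 0.44 ± 0.20 (SE; adjusted p = 0.575 in edgeR's quasi-likelihood test). It was 0.66 without WT mouse 1 and 0.25 without WT mouse 3 (edgeR adjusted p = 0.197 and 0.438). The count covers the whole gene, so it does not check the genotype, and every direction below is between libraries as labelled. Progenitor markers were present in all libraries. Kit, the stem cell factor receptor, lay at 238 and 207 CPM in KO mice and at 226 and 195 CPM in WT mice. Markers of mature cells were present as well, and their levels follow the members' values.

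All 5 genes had a lower mean in the libraries labelled KO, with ratios of KO to WT between 0.553 (Socs3) and 0.809 (Pim1), and none passed the test over all genes. By edgeR's quasi-likelihood test 0 of the 5 were called at an adjusted p of 0.05, against 0.135% of all genes (0.0320% higher and 0.103% lower). DESeq2 called 1 (Socs3), against 1.59% of all genes with an adjusted p. The edgeR likelihood ratio test (1.13% of all genes), the authors' deposited table (also 1.13%) and limma voom (0 of all genes) called 0 of the 5. At an unadjusted p under 0.05 there were 4 of the 5, all lower, against 8.89% of all genes in either direction and 5.56% that were lower. That count was 2 with the likelihood ratio test (1158 of all 15607 genes) and 3 with DESeq2 (1177 genes). It was not stable when 1 library was left out, which leaves 1 mouse in a group. The members' median log2 fold change then ran from -0.58 (without KO mouse 6) to -0.31 (without WT mouse 1). In 4 of the 5 both KO libraries lay below both WT libraries, which held for 20.9% of all genes, and Socs2 was the exception. The opposite arrangement, in 21.4% of all genes, was found in 0 of the 5. The median log2 fold change of the 5 was -0.37, beside -0.0053 over all genes tested, and all 5 were negative where 51.2% of all genes were.

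**Figure D1:**
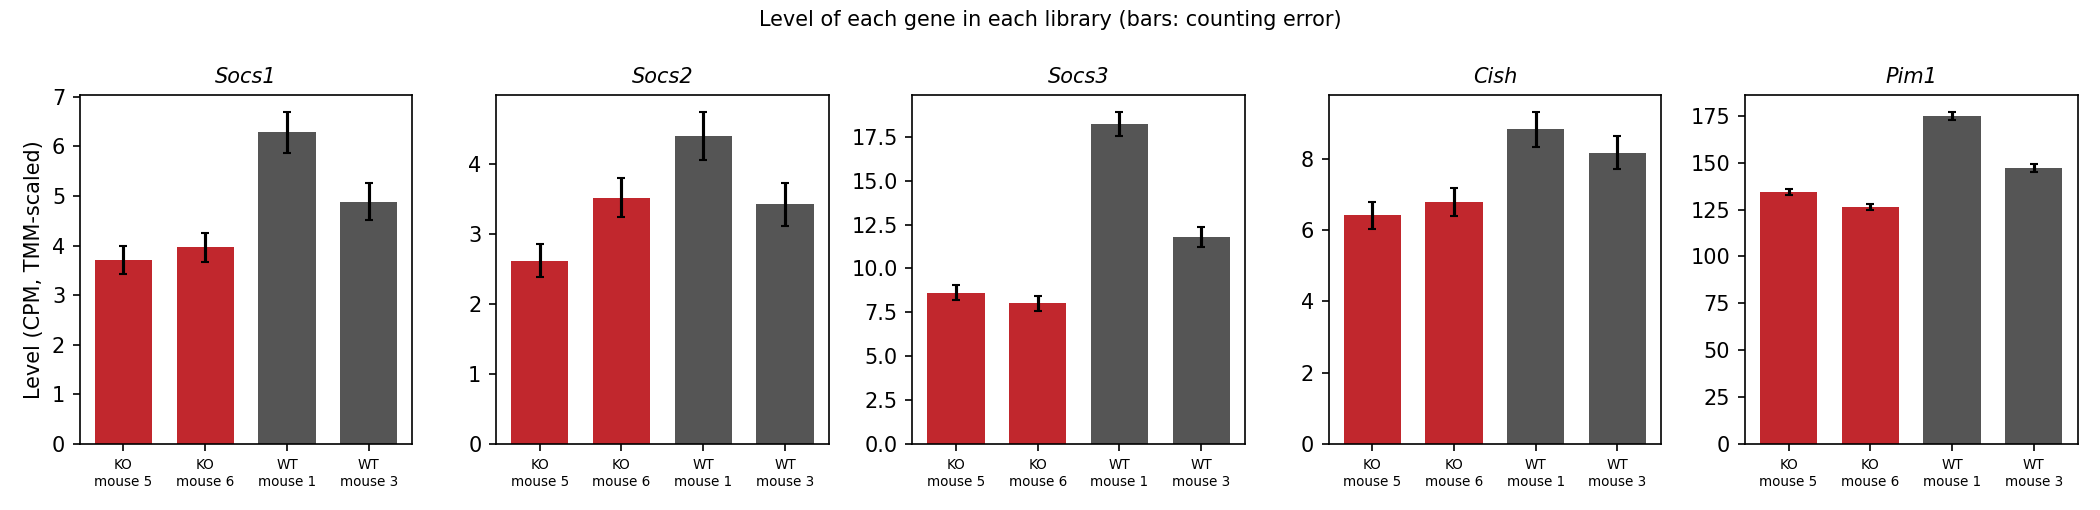
Level of Socs1, Socs2, Socs3, Cish and Pim1 in CPM (y axes, each from 0) in KO mice 5 and 6 (red) and WT mice 1 and 3 (grey). Error lines are the counting error of 1 library. Each gene is highest in WT mouse 1, and KO and WT overlap for Socs2 alone.

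Socs3 encodes the feedback inhibitor of receptors that signal through gp130 and of the G-CSF receptor. It had 398 and 358 counts (8.61 and 8.02 CPM) in KO mice 5 and 6, against 667 and 428 counts (18.2 and 11.8 CPM) in WT mice 1 and 3. Both KO libraries were low and close together, and WT mouse 1 stood well above WT mouse 3. The means were 8.32 ± 0.422 CPM in KO and 15.0 ± 4.54 CPM in WT (SD, n = 2 each). On the log2 scale the difference was -0.85 ± 0.21 (SE), with a 95% interval of -1.35 to -0.35 and an adjusted p of 0.294 by edgeR quasi-likelihood. The gap between the WT mice was 0.63 on the same scale. DESeq2 gave Socs3 an adjusted p of 0.0271, and the authors' deposited table gives it 0.107. Leaving out WT mouse 1 brought the log2 fold change to -0.51, and leaving out WT mouse 3 brought it to -1.14.

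The gene lies on the minus strand of chromosome 11, 117966079 to 117970047 in mm10. The 250 bases before its RefSeq start site (GRCm38.p6, chr11:117969367-117969616, minus strand) are shown because they hold 1 match, in capitals, to the core of the site that STAT dimers bind, TTCNNNGAA, and the match begins 154 bases before the start.
Socs3: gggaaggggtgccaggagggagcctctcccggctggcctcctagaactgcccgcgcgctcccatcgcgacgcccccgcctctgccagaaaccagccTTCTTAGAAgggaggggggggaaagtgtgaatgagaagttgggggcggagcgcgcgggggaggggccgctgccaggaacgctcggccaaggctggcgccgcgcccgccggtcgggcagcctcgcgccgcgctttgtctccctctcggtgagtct

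The bases shown lie inside the gene span given above, and 0 of them are in exons of a coding transcript in GENCODE M21. The pattern TTCNNNGAA reads the same on both strands. It was found in 8.3% of the 32851 RefSeq promoter windows of the mouse, which run from 250 bases before to 50 bases after a start. A match is a description of the letters and no evidence that a STAT protein binds there. Of the 5 genes, Socs1, Socs3, Cish and Pim1 had a window in the RefSeq table, and Socs2 is named only.

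Socs1, the inhibitor best known for restraining interferon gamma signaling, had 171 and 177 counts (3.70 and 3.96 CPM) in KO mice 5 and 6. WT mice 1 and 3 had 230 and 177 counts (6.29 and 4.89 CPM). KO mouse 6 and WT mouse 3 thus held the same number of counts, and they differed once scaled to library size. The groups did not overlap in CPM. Means were 3.83 ± 0.186 CPM in KO and 5.59 ± 0.990 CPM in WT (SD, n = 2 each), a log2 fold change of -0.54 ± 0.20 (SE; 95% interval -1.02 to -0.069; edgeR quasi-likelihood adjusted p = 0.495). Without WT mouse 1 the log2 fold change was -0.35 (edgeR adjusted p = 0.608).

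Socs1 lies on the minus strand of chromosome 16, 10782240 to 10785536 in mm10. Its window had 0 matches to TTCNNNGAA and 0 to the same pattern with 4 free bases between TTC and GAA, which 6.95% of promoter windows held and none of the members' windows did. It had 2 overlapping matches to a pair of GAAA words with 2 free bases between them, the core of the element read by interferon regulatory factors, which 3.44% of windows held on either strand. They begin 83 and 77 bases before the RefSeq start and are in capitals in the 250 bases before it (GRCm38.p6, chr16:10785537-10785786, minus strand), shown as the contrast to Socs3.
Socs1: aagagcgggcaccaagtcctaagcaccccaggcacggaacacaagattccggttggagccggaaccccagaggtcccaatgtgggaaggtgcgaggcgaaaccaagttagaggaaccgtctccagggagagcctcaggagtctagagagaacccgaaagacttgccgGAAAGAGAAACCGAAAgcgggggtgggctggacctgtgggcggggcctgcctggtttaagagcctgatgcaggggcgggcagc

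Cish, a classical target of STAT5 downstream of the erythropoietin and interleukin-3 receptors, had 296 and 303 counts (6.41 and 6.78 CPM) in KO mice 5 and 6. In WT mice 1 and 3 it had 323 and 296 counts (8.83 and 8.17 CPM). Within each group the mice were close, and the groups were apart. Cish averaged 6.60 ± 0.268 CPM in KO and 8.50 ± 0.464 CPM in WT (SD, n = 2 each). Its log2 fold change was -0.37 ± 0.15 (SE; 95% interval -0.73 to -0.0018; edgeR quasi-likelihood adjusted p = 0.560). Of the 5 genes it moved least when a library was left out, staying between -0.43 and -0.31.

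The gene spans chromosome 9, 107296026 to 107302784, on the plus strand in mm10. Its window had 2 matches to TTCNNNGAA, in capitals below, which begin at base 1 and base 12 counted from the RefSeq start (GRCm38.p6, chr9:107296654-107296683, plus strand, of which 5 bases lie before the start).
Cish: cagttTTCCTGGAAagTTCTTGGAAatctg

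In GENCODE M21 a coding Cish transcript starts further upstream, so all 250 bases before that RefSeq start lie in exons there. On the opposite strand Gm17040 overlaps the gene by 1167 bases and Gm17041 by 1459. Gm26885 overlaps Pim1 by 1173 bases in the same way. None of these has a row in the table, and the library chemistry does not mark strand, so antisense reads cannot be told apart from those of Cish and Pim1.

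Socs2, a STAT5 target best known for limiting growth hormone signaling, had 121 and 157 counts (2.62 and 3.52 CPM) in KO mice 5 and 6. WT mice 1 and 3 had 161 and 124 counts (4.40 and 3.42 CPM). KO mouse 6 lay just above WT mouse 3, so the groups overlapped. At these counts the counting error alone was 7.88% to 9.09% of each value. Means were 3.07 ± 0.634 CPM in KO and 3.91 ± 0.691 CPM in WT (SD, n = 2 each), and the log2 fold change of -0.35 ± 0.24 (SE; 95% interval -0.92 to 0.21; edgeR quasi-likelihood adjusted p = 0.672) had an interval that includes 0. Without KO mouse 5 it was -0.16 and without WT mouse 1 it was -0.16, against -0.58 without KO mouse 6 and -0.53 without WT mouse 3. Socs2 (chromosome 10, 95385362 to 95417180, minus strand) has 14 annotated transcripts in GENCODE M21, and its longest coding transcript covers 23.3% of the exonic length used in the table.

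Pim1 was by far the most highly counted of the 5. It had 6208 and 5646 counts (134 and 126 CPM) in KO mice 5 and 6, against 6404 and 5333 counts (175 and 147 CPM) in WT mice 1 and 3. Here the groups did not overlap, although KO mouse 5 was closer to WT mouse 3 than the WT mice were to each other. Means were 130 ± 5.61 CPM in KO and 161 ± 19.7 CPM in WT (SD, n = 2 each), with a log2 fold change of -0.31 ± 0.10 (SE; 95% interval -0.55 to -0.059; edgeR quasi-likelihood adjusted p = 0.465). Counting error was 1.37% or less, well below the difference between the WT mice. The log2 fold change was -0.18 without WT mouse 1 and -0.43 without WT mouse 3. Pim1 lies on the plus strand of chromosome 17, 29490753 to 29496112, and its 2 RefSeq promoter windows held 0 matches to the 3 patterns searched.

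Divided by gene length (CPM per kb of exon, RPKM), the order was Pim1, Socs3, Socs1, Cish and Socs2 in each of the 4 libraries. Pim1 was at 40.0 and 37.6 RPKM in KO mice 5 and 6 and at 52.1 and 43.8 RPKM in WT mice 1 and 3. Socs3 was at 2.98 and 2.77 RPKM in KO mice and 6.31 and 4.09 RPKM in WT mice, and its lowest library was above the highest of Socs1. For Socs1 the levels were 1.27 and 1.36 RPKM in KO and 2.16 and 1.68 RPKM in WT. Cish had 0.998 and 1.06 RPKM in KO and 1.38 and 1.27 RPKM in WT, so its range over the libraries overlapped that of Socs1. Socs2 was lowest, at 0.275 and 0.369 RPKM in KO and 0.462 and 0.359 RPKM in WT. This order rests on the table's gene lengths, which add up every annotated exon. With the length of the longest coding transcript, an alternative added after the data were seen, Cish (2.31 ± 0.0940 in KO, 2.98 ± 0.163 in WT) moved above Socs1 (1.32 ± 0.0639 in KO, 1.92 ± 0.340 in WT), and Socs2 (1.38 ± 0.285 in KO, 1.76 ± 0.311 in WT) no longer stood apart from Socs1 (RPKM, SD, n = 2 each).

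The other members of the 2 families lay nearer to 0. Socs4, Socs5, Socs6 and Socs7, whose products act mainly outside classical cytokine feedback, had log2 fold changes of 0.01, 0.20, -0.07 and 0.03, and Pim2 and Pim3, the kinases closest to PIM1, had -0.06 and -0.24. None of the 6 passed the edgeR quasi-likelihood test, with 0 at an unadjusted p under 0.05, and their median was -0.02. Socs5 had 2.01 and 2.03 RPKM in KO mice 5 and 6 against 1.78 and 1.73 RPKM in WT mice 1 and 3, with KO above WT. Pim3 went the other way, at 10.5 and 10.4 RPKM in KO mice against 13.2 and 11.4 RPKM in WT mice. Per length Socs7 (6.85 to 7.29 RPKM) was above Socs3 in every library, whereas Socs4 (5.78 to 6.62 RPKM) was above it in all but WT mouse 1. The 95% intervals of Socs3 (-1.35 to -0.35) and Socs4 (-0.21 to 0.23) did not overlap. Those of Socs1 (-1.02 to -0.069), Socs2 (-0.92 to 0.21) and Cish (-0.73 to -0.0018) did overlap that of Socs4. The interval of Pim1 (-0.55 to -0.059) overlapped those of Pim2 (-0.44 to 0.33) and Pim3 (-0.49 to 0.013). The difference between genes was not tested.

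**Figure D2:**
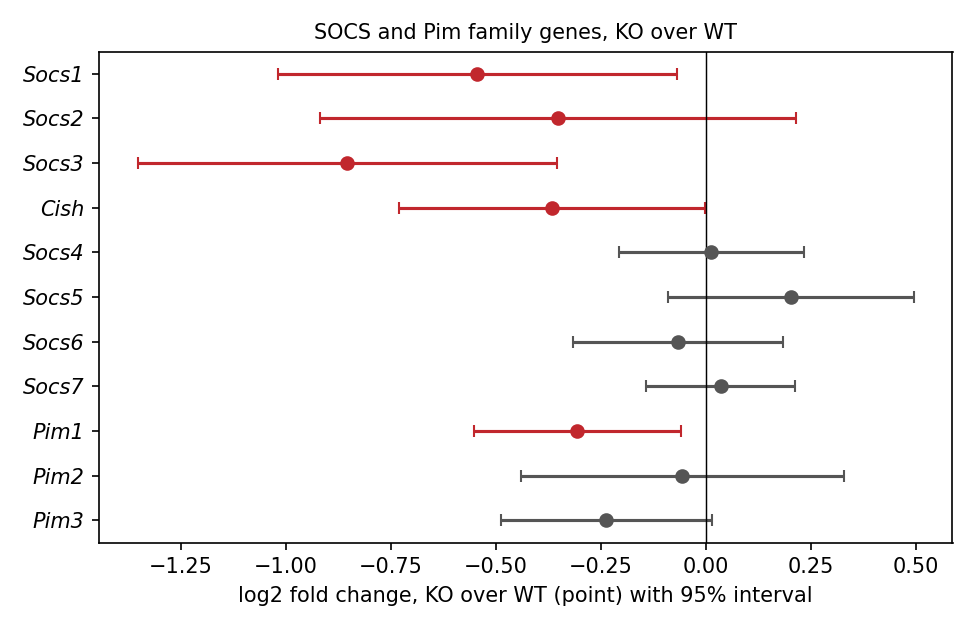
Log2 fold change, KO over WT (x axis), of the SOCS family and Pim genes with 95% intervals from the edgeR quasi-likelihood fit of 2 KO and 2 WT libraries. Red points are Socs1, Socs2, Socs3, Cish and Pim1 (from -0.85 to -0.31) and grey points are the other 6 genes (from -0.24 to 0.20).

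Over the 4 libraries the 5 genes shared their highest library, WT mouse 1, and differed in the rest of the pattern. That library was the highest for 31.3% of all genes. After each gene was centred on its mean log2 CPM, Cish and Pim1 had the most similar pattern, with a root-mean-square difference of 0.084 over the 4 libraries, and Socs2 and Socs3 the least similar, at 0.31. KO mouse 5 was the lowest library for Socs1, Socs2 and Cish, and KO mouse 6 was the lowest for Socs3 and Pim1.

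**Figure D3:**
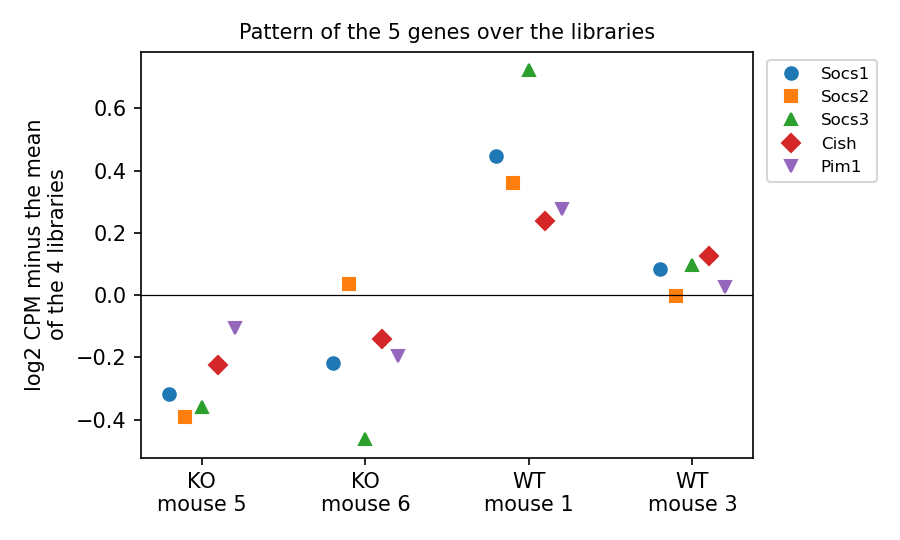
Log2 CPM of Socs1, Socs2, Socs3, Cish and Pim1 minus each gene's mean of the 4 libraries (y axis) in KO mice 5 and 6 and WT mice 1 and 3 (x axis). All 5 genes peak in WT mouse 1, where Socs3 stands out, and Socs2 is level between KO mouse 6 and WT mouse 3.

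Among genes with a mean of at least 10 CPM, the pattern nearest to Socs3 was that of the chemokine gene Ccl3 (root-mean-square difference 0.012 in log2 CPM over 4 libraries), at 39.9 and 37.4 CPM in KO mice and 85.0 and 54.0 CPM in WT mice. The phosphatase gene Dusp5 (0.066) and the receptor gene Lilr4b (0.072) followed. Nearest to Cish were Milr1 (0.017), Il18rap (0.021) and Tlr2 (0.022). Those nearest to Pim1 were Etfrf1 (0.013), Pik3ip1 (0.018) and Erg (0.022). For Socs2 they were Afdn (0.026), Arl4c (0.048) and Alox15 (0.059), and for Socs1 the mitochondrial ribosomal RNA mt-Rnr2 (0.043), Id2 (0.044) and Thbs1 (0.046). With 4 libraries and 9222 or 9223 candidate genes such matches are a description. Of the 15, 7 were still nearest with a minimum of 2 CPM and 3 without KO mouse 6.

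The gene called in the pathway lists was in the cytokine ligand list and also in that of further STAT-responsive genes. Its place before or after the 5 genes in signaling was not tested. Osm, encoding oncostatin M, a gp130 cytokine and itself a STAT5 target, had 35.2 and 35.3 CPM in KO mice 5 and 6, against 88.1 and 67.2 CPM in WT mice 1 and 3 (log2 fold change -1.14 ± 0.13 SE, edgeR quasi-likelihood adjusted p = 0.0477). It was the only 1 of 91 pathway genes in 7 lists to pass, and by the same test it no longer did with DESeq2 size factors, with total counts, without robust estimation, with a filter of 1 CPM in 2 libraries, without mitochondrial and hemoglobin genes, or without either KO mouse. It passed without either WT mouse, at -0.93 without WT mouse 1 and -1.33 without WT mouse 3. The ligand list's other 9 measured members did not pass. Interleukin-6 (Il6) was at 2.21 and 1.72 CPM in KO mice against 3.55 and 2.46 CPM in WT mice. Il15 was at 10.8 and 10.9 CPM in KO mice against 14.4 and 12.1 CPM in WT mice, and Csf1, which overlapped, at 31.4 and 27.9 CPM in KO mice against 38.2 and 29.7 CPM in WT mice. In Osm, Il6 and Il15 the groups did not overlap, and WT mouse 1 was highest. The median log2 fold change of the 10 ligands was -0.29, and 6 of them averaged under 2 CPM. For each list, the shares over all genes to set its counts beside are 0.135% called, 5.56% lower at an unadjusted p under 0.05 and 20.9% with both KO libraries below both WT libraries.

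Of 11 Janus kinases and STATs, 0 passed by edgeR quasi-likelihood (1 at an unadjusted p under 0.05), and the median log2 fold change was -0.04. Stat5a, a direct activator of Cish and Socs2, was at 107 and 107 CPM in KO mice against 94.6 and 102 CPM in WT mice (log2 fold change 0.12, edgeR adjusted p = 0.667). Stat4 had a log2 fold change of -0.25 and Tyk2, a Janus kinase, 0.11 (edgeR adjusted p = 0.635 and 0.719).

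Of 24 cytokine receptor chains measured, 0 passed by edgeR quasi-likelihood and 6 had an unadjusted p under 0.05, all lower. Their median log2 fold change was -0.14. Il2ra, the interleukin-2 receptor alpha chain and a STAT5 target, had 3.05 and 2.69 CPM in KO mice against 4.95 and 5.33 CPM in WT mice (log2 fold change -0.84 ± 0.19 SE, edgeR adjusted p = 0.260). The interleukin-3 receptor chains Il3ra (67.2 and 67.9 CPM in KO mice against 82.7 and 82.5 CPM in WT mice) and Csf2rb2 (46.9 and 45.7 CPM in KO mice against 59.9 and 55.6 CPM in WT mice) had log2 fold changes of -0.29 and -0.32 (edgeR adjusted p = 0.290 and 0.291). Il7r, the interleukin-7 receptor of lymphoid progenitors, had -0.51 (adjusted p = 0.458). The groups did not overlap in these 4 receptor genes.

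Of 13 measured genes that restrain the pathway by other means, 0 passed and 0 had an unadjusted p under 0.05 by edgeR quasi-likelihood, with a median log2 fold change of -0.07. Usp18, an interferon-induced brake on the interferon receptor, had -0.39 (edgeR adjusted p = 0.564). The phosphatase genes Ptprc and Ptpn2 had -0.21 and -0.15, and Ptpn11 had 0.16. The 6 measured partners of the SOCS box had 0 calls, 0 at an unadjusted p under 0.05 and a median of -0.04. Rnf7 was at -0.20, Eloc and Rbx1 at -0.10 each, and Cul2, a cullin, at 0.12.

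Of the further STAT-responsive genes, Osm was the 1 of 23 to pass, 9 had an unadjusted p under 0.05, all lower (5.56% of all genes), and in 11 both KO libraries lay below both WT libraries (20.9% of all genes). The median log2 fold change was -0.16. Junb, an AP-1 subunit, had 215 and 240 CPM in KO mice against 379 and 352 CPM in WT mice (log2 fold change -0.68 ± 0.098 SE, edgeR quasi-likelihood adjusted p = 0.0814), and DESeq2 gave it an adjusted p of 1.13e-07. Irf1, an interferon-induced transcription factor, was at 72.6 and 72.4 CPM in KO mice against 94.8 and 85.3 CPM in WT mice (-0.31, edgeR adjusted p = 0.318). Fos had a log2 fold change of -0.37 (edgeR adjusted p = 0.369; DESeq2 adjusted p = 0.0140). Over the 91 genes of all lists (87 with an adjusted p from DESeq2), DESeq2 called Osm, Junb and Fos, the likelihood ratio test called Osm and Junb, and limma voom called 0.

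**Figure D4:**
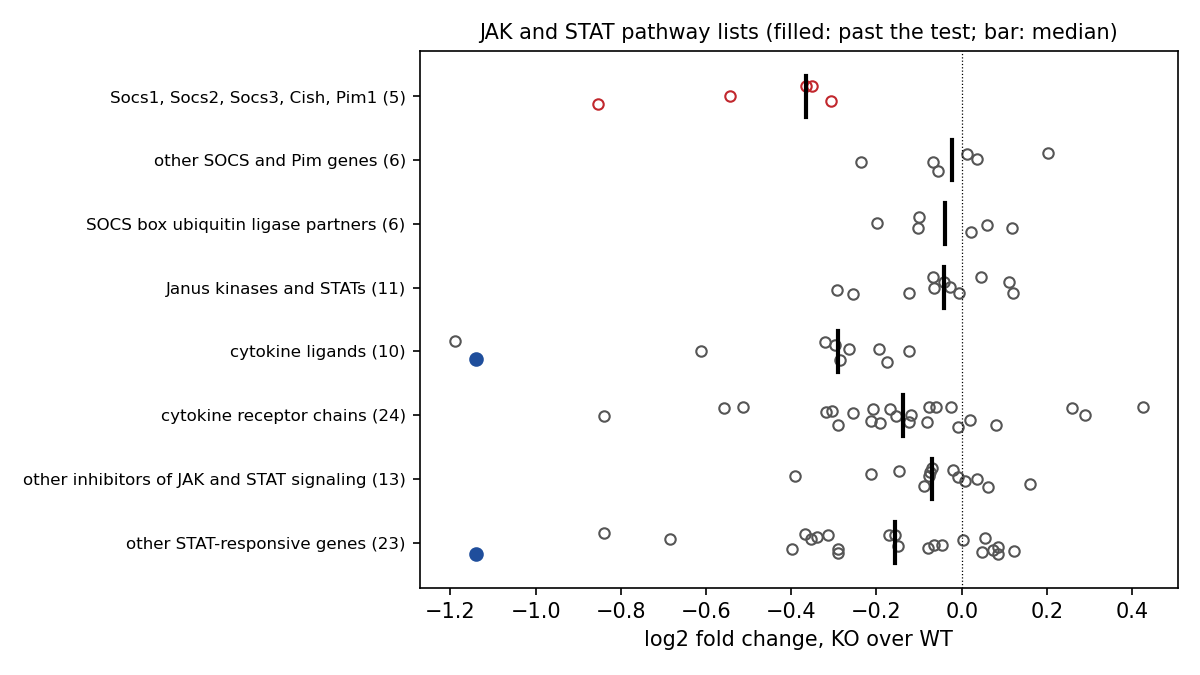
Log2 fold change, KO over WT (x axis), of each measured gene in the 5 STAT target genes and in 7 pathway lists (rows, with the number of genes). Filled points passed the edgeR quasi-likelihood test (Osm, in 2 lists) and black bars are list medians, which run from -0.37 for the 5 genes to -0.02 for the other SOCS and Pim genes.

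Markers of several cell types moved with the labels in the same libraries. The 12 neutrophil genes summed to 14106 and 14300 CPM in KO mice 5 and 6, against 20066 and 28464 CPM in WT mice 1 and 3. All 12 were lower in both KO libraries than in both WT libraries, against 20.9% of all genes. Fpr2, Retnlg and Cxcr2 passed the test as lower, against 0.103% of all genes. In 11 of the 12 the highest library was WT mouse 3, whereas WT mouse 1 was highest for all 5 STAT target genes. Over all genes, WT mouse 3 was highest for 24.2% and WT mouse 1 for 31.3%. T and NK cell genes summed to 126 and 133 CPM in KO mice and to 207 and 130 CPM in WT mice, with WT mouse 1 highest for 9 of 10. Basophil, mast cell and eosinophil genes (8) summed to 3871 and 3405 CPM in KO mice and to 4555 and 3074 CPM in WT mice. Megakaryocyte genes (10) were at 474 and 425 CPM in KO mice against 324 and 311 CPM in WT mice. Among them Ppbp and Pf4, which encode platelet chemokines, passed the test as higher, with log2 fold changes of 1.62 and 0.92 (edgeR adjusted p = 0.0160 and 0.0477). Over all genes 0.0320% passed as higher. In 8 of the 10 the unadjusted p was under 0.05, all higher, against 8.89% of all genes in either direction. Stroma and endothelium genes (11, with Lum at 0 counts in WT mouse 1) were at 716 and 674 CPM in KO mice against 133 and 237 CPM in WT mice. Of these 11, 0 passed the edgeR quasi-likelihood test, and 4 averaged under 2 CPM. In 6 the unadjusted p was under 0.05, all higher, beside the same 8.89% of all genes. B cell genes (9) summed to 211 and 170 CPM in KO and 214 and 251 CPM in WT, monocyte, macrophage and dendritic cell genes (10) to 2072 and 2311 CPM in KO and 2218 and 2405 CPM in WT, and erythroid genes (11) to 3299 and 2477 CPM in KO and 2292 and 2740 CPM in WT. The 12 stem and progenitor genes summed to 1259 and 1179 CPM in KO mice and to 1361 and 1126 CPM in WT mice, and 9 of the 12 were highest in WT mouse 1. The markers' part in the levels of Socs1, Socs2, Socs3, Cish and Pim1 was not tested. In these bulk libraries, fewer cells of a type and less RNA per cell cannot be told apart.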

How the data were processed

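The authors deposited whole-number counts per gene, log2 CPM and log2 RPKM per library, gene lengths, and, for KO over WT, a log2 fold change with its p-value and adjusted p-value, per the file headers. The build mm10, the aligner STAR 2.5, the trimmer Trimmomatic 0.40, edgeR 3.28.1 and the quality tools FastQC and MultiQC 0.11.5 are named per the submitters' processing notes. The sources used here name no counter, annotation release or strand setting. SMART-Seq v4 cDNA and Nextera XT libraries were made, per the labels' protocols. A further 2 columns of per-sample values were not used.

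Counts were fitted over all 15607 genes with edgeR 4.0.16 (R 4.3.3; TMM scaling, filterByExpr, which removed 0 genes, robust quasi-likelihood F test, Benjamini-Hochberg adjustment, threshold 0.05). SEs and intervals come from the F statistic. Alternatives used DESeq2 1.42.0, limma 3.58.1, other scalings and filters, and removal of each library in turn. The labels give each library its own mouse number, so the spread within a group is between mice. With 2 residual degrees of freedom, the quasi-likelihood p-values and intervals also rest on spread shared over all genes. The median of prior plus residual degrees of freedom was 7.16. The members and lists were chosen with earlier results of these data known, so no list was tested. Named genes were the members, all other SOCS and Pim genes, called genes of each pathway list and up to 4 more per list with the smallest p and a mean of at least 2 CPM, and for each member the 3 genes nearest in pattern (log2 CPM, prior count 2; mean of at least 10 CPM), with Pcgf2 and, where a cell type is described, its markers. The values of 1 gene named by this rule are not reported here. Lists held 105 pathway symbols, of which 91 were measured. Gene models came from GENCODE M21, whose summed exon lengths for the 5 genes equalled the lengths in the table, and promoter windows from RefSeq on GRCm38.p6.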

Additional observations from a re-analysis of the deposited data

How the results depend on the processing

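No paired analysis was possible because the KO and WT mice share no replicate number.

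The log2 fold changes of Socs1, Socs2, Socs3, Cish and Pim1 stayed negative under all 13 alternatives, and that of Pcgf2 stayed positive. In all of these but Socs2 the groups did not overlap, so leaving out 1 library could hardly change the direction. Without a filter the fit was the same, since 0 genes were removed. Of the alternatives with all 4 libraries, Socs1, Socs2, Cish and Pim1 passed the test under none. Socs3 passed with the DESeq2 Wald test alone (-0.85), which called 1.59% of all genes with an adjusted p. With 1 library left out Socs3 ranged from -1.14 to -0.51 and Pim1 from -0.43 to -0.18. With all 4 libraries the number of members called was therefore 1 with DESeq2 and 0 otherwise. The members' median ranged from -0.58 (without KO mouse 6) to -0.31 (without WT mouse 1). The order of levels changed for 2 of the 5 genes with coding transcript lengths. Of the 15 nearest genes, 7 remained with a minimum of 2 CPM and 3 without KO mouse 6. The coding length and the comparison without KO mouse 6 were chosen after seeing the data.

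Over all genes, 21 were called. There were 219 with DESeq2, 177 with the likelihood ratio test, 4 without robust estimation, 10 with a filter of 1 CPM in 2 libraries, and 0 with limma voom (1363 at an unadjusted p under 0.05, against 1388). Leaving out 1 library gave 5 (KO mouse 5), 18 (KO mouse 6), 289 (WT mouse 1) and 844 (WT mouse 3), where the spread came from the complete pair and the lone library was assumed to vary like it. Pathway genes called were 3 with DESeq2, 2 with the likelihood ratio test, 0 with limma voom, DESeq2 size factors, total counts, no robust estimation, the 1 CPM filter or no mitochondrial and hemoglobin genes, and 0 to 9 with a library left out. The cause of these changes was not tested. Socs1, Socs2, Socs3 and Cish had 121 to 667 counts per library, and Pim1 5333 to 6404. The fit had 2 residual degrees of freedom.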

Other observations

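The pentamer AUUUA, a common element of short-lived messages, was counted in the 3′ untranslated region of the longest coding transcript of each gene. Pim1 had 5 copies in 1368 bases (3.65 per kb), Cish had 3 in 1090 (2.75 per kb), Socs3 had 4 in 1477 (2.71 per kb), Socs2 had 2 in 1166 (1.72 per kb) and Socs1 had 0 in 1996. The median over 12404 genes was 1.31 per kb, and 12.9% of them reached the density of Pim1 and 22.9% that of Socs3.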
